A study of Caenorhabditis elegans with 4 samples.

Results

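The broad RNA polymerase II (Pol II) domains of Caenorhabditis elegans L4 larvae are the listed peaks at least 2000 bp wide, selected on width alone. They number 796 of the 10731 peaks in the list. They came from chromatin immunoprecipitation followed by sequencing (ChIP-seq) of wild-type hermaphrodites of strain N2, grown at 20 °C and crosslinked as whole animals, so all cell types are mixed. The 4 samples comprise 2 of ChIP DNA, precipitated with the monoclonal antibody 8WG16 against the C-terminal repeats of the largest Pol II subunit, and 2 of input DNA, with 1 of each in either replicate. The labels' protocol text speaks of embryos and of an antibody to GFP, in conflict with the stage and antibody labels, which are used here. The deposited list is labelled as combined and uses WormBase build WS190. It gives each peak a position and a q-value, which is a p-value corrected for multiple testing. There is no value per sample, so no replicate error can be given and nothing below is a test between groups of worms.

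Pol II transcribes all protein-coding genes, and the C-terminal tail of its largest subunit is phosphorylated in steps as it passes from the promoter into the gene. The antibody 8WG16 is known to prefer the tail with little phosphorylation, which is most common near gene starts. A wide stretch of signal can come from polymerase along the body of a gene or from closely packed genes. What the annotation holds at the positions below was not analysed here.

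The width that chose the members is a description and not a result. The domains ran from 2006 to 15454 bp, with a median of 2992 bp and quartiles of 2377 and 4024 bp. The 6 members just inside the limit were 2006 to 2011 bp wide. The −log10 q-values of 5 of them lay between 17.1 and 34.1, and that of the other, on III from 11693316 to 11695326, was 73.3. The peaks just outside, 1998 and 1999 bp wide, had values between 5.03 and 28.8. There were 117 domains of at least 5000 bp and 7 of at least 10000 bp. The domains were 7.42% of the listed peaks (95% exact binomial interval 6.93 to 7.93) and held 2.83 Mb, or 36.6% of the length inside peaks. Intervals on shares and medians here treat peaks as independent and cover counting error within this list only.

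The q-values allowed the tag numbers behind most domains to be read back. PeakSeq, the caller, is known to compare the ChIP tags of a region with the scaled input tags by a binomial test with equal odds, and to multiply the p-value by the number of regions tested over its rank. In these data, q-value times rank was equal for 4672 pairs of neighbouring lines when the first line was given rank 68, and for none at the other offsets tried. With 20431 regions tested, all 245 q-values tried were such binomial tails, and none was with any other number of regions tried. The p-values of 10724 peaks, 790 of them domains, then matched exactly 1 pair of whole tag numbers, with a relative error of at most 2.68e-13. The larger number is taken as ChIP tags and the smaller as input tags after the caller's scaling, so their ratio is the enrichment that the caller saw. Intervals on the ratio of a single domain treat the scaled input number as a count, so their width is approximate. Tags are not independent molecules where PCR copies were kept. The other 6 domains have the 6 smallest q-values of the list. Their p-values came out as numbers of a single digit, so that no tag numbers could be matched, and every summary of tags leaves them out. Tag numbers were sought after the data had been seen.

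Ranks 1 to 67 belong to no listed peak. Regions at these 67 ranks would have the smallest p-values. Their positions and widths were not analysed here. The 6 listed peaks next in rank were all domains. Domains among the absent regions, if any, are missing from every count, density, gap and share given here. Every statement on the widest and strongest domains is about those listed.

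A broad domain held more tags than a short peak, as its width entails, with a slightly higher median ratio to input. The median domain had 719.5 ChIP tags (95% interval 684 to 761) against 243 input tags (234 to 253). The median over the 9934 narrower peaks with tag numbers was 85 ChIP tags against 32 input tags. The median ratio of ChIP to input tags was 3.01 (2.90 to 3.10) in domains and 2.72 (2.70 to 2.75) in narrower peaks, and it was higher in domains on each of the 6 chromosomes. The ratio of narrower peaks varied with width. Its median was 3.75 under 100 bp, above that of domains, 2.51 at 500 to under 1000 bp and 2.68 at 1000 to under 2000 bp. A peak with fewer tags needs a higher ratio to be listed, so these medians are not like for like. ChIP tags per kb had medians of 228 (222 to 233) in domains and 241 (239 to 243) in narrower peaks, but the latter depended on width. Peaks under 100 bp had a median of 767 per kb. Those of 500 to under 1000 bp had 208 and those of 1000 to under 2000 bp 200, against 217 in domains under 2500 bp. The domains had the higher median on III (277 against 271) and V (233 against 219), and the narrower peaks on the other chromosomes. The domains held 692783 of the 1836402 ChIP tags in listed peaks, or 37.7%. The median −log10 q-value was 56.3 (51.9 to 61.8) in domains and 5.06 (4.97 to 5.17) in narrower peaks. No test is attached to these differences, because the members were chosen on the same list.

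Among the domains themselves, wider ones had smaller q-values, while enrichment hardly varied with width. Spearman's rho between width and −log10 q-value was 0.43 over the 796 domains, and r on log10 width reached 0.46 (Pearson). Between width and the ChIP-to-input ratio rho was -0.02 over 790 domains and r was -0.09. The 6 domains without tag numbers, 4846 to 9138 bp wide and with the smallest q-values, are missing from the ratios. In narrower peaks rho of width was 0.62 with −log10 q-value and -0.22 with the ratio. Width and q-value share the number of tags, and rho between width and ChIP tags was 0.73. The median −log10 q-value was 34.3 (31.5 to 37.9) at 2000 to under 2500 bp, 62.5 (52.3 to 70.9) at 3000 to under 4000 bp and 164 (88.5 to 192) from 7500 bp. The median ratio in the same classes was 2.92 (2.68 to 3.16), 3.07 (2.87 to 3.22) and 2.69 (2.50 to 3.18). The median ChIP tags per kb were 217, 228 and 236. Chromosome II departed from this, with rho between width and ratio of 0.21 over 118 domains, against -0.09 to 0.08 on the other chromosomes.

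**Figure D1:**
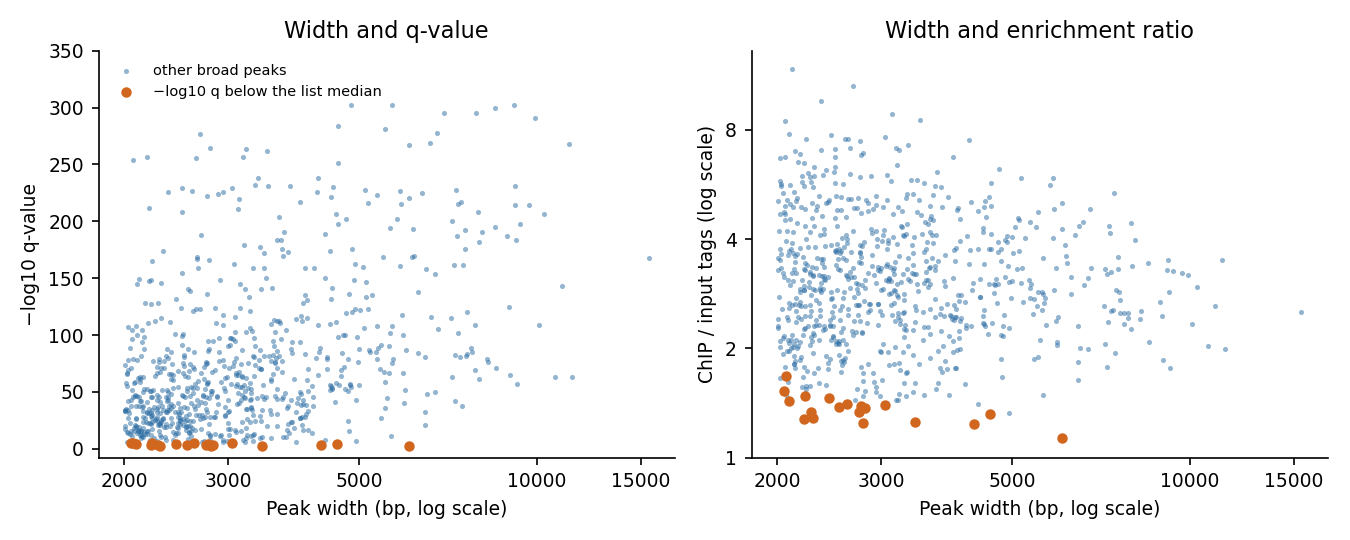
Left, −log10 q-value against width (bp, log scale) of the 796 domains; right, ratio of ChIP to input tags (log scale) against width of the 790 domains with tag numbers. Each point is a domain, and orange marks the 19 whose −log10 q-value is below the median of the whole list; −log10 q is higher in wider domains (rho 0.43), while the ratio shows no such relation (rho -0.02).

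The widest domain, on chromosome II from 3955633 to 3971086, held 2870 ChIP and 1139 input tags, a ratio of 2.52 (95% exact binomial interval 2.35 to 2.70). The next, on II from 1141614 to 1153078 (11465 bp), had a ratio of 2.00 (1.84 to 2.17). That on X from 3816346 to 3827680 (11335 bp) had 3.50 (3.24 to 3.78). The domain on V from 16777603 to 16788617 (11015 bp) had 2.62 (2.42 to 2.84), and that on IV from 15036991 to 15047710 (10720 bp) had 2.04 (1.87 to 2.22). Of these 5, only the X domain was above the median ratio of all domains. The widest on III, from 3863862 to 3873773 (9912 bp), was also its strongest, with 3563 ChIP tags, the most read back for any domain. The widest on I, from 5302424 to 5312500 (10077 bp), had a −log10 q-value of 109.

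The 5 highest ratios belonged to domains of 2118 to 3490 bp. On IV from 2765064 to 2767181 (2118 bp) 763 ChIP tags stood against 65 input tags, a ratio of 11.7 (9.10 to 15.4). On I from 6497360 to 6500048 (2689 bp) 1466 stood against 139, a ratio of 10.5 (8.86 to 12.6), the strongest domain of that chromosome. On II from 2242508 to 2244877 (2370 bp) the ratio was 9.61 (7.08 to 13.3), with 442 ChIP tags and the lowest input density of any domain, 19.4 tags per kb. The densest in ChIP tags was on X from 17419594 to 17421783 (2190 bp), with 759 per kb and a ratio of 6.84. It was followed by III from 1418372 to 1420438 (2067 bp), with 713 per kb and a ratio of 8.47. The smallest q-values, by contrast, belonged to domains from 4846 to 9138 bp, with −log10 values from 295 to 303: V from 12551574 to 12557250, V from 14828282 to 14837419, X from 15075722 to 15080567, V from 5838599 to 5847073 and II from 5333547 to 5341430. None of these 5 has tag numbers.

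Broad domains were spread far more evenly over the chromosomes than peaks in general. Their density was 9.16 per Mb on IV, 8.78 on III, 8.04 on I, 7.79 on II, 7.34 on V and 6.89 on X. The density of all listed peaks ran from 62.5 per Mb on X to 175 on I. X, the sex chromosome, held 122 domains, 15.3% (12.9 to 18.02), on 17.7% of the span, and 9.92% (9.34 to 10.5) of the narrower peaks. Chromosome I held 121, 15.2% (12.8 to 17.9), on 15.02% of the span. The span of a chromosome is the end of its last listed peak. The domains covered 2.52% of X, 2.63% of I, 2.77% of V, 2.87% of II, 3.06% of IV and 3.196% of III.

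The share of listed peaks that were broad was lowest on I, at 4.60% (3.83 to 5.47), and highest on X, at 11.0% (9.23 to 13.0). It was 10.6% (9.09 to 12.3) on V, 8.39% (7.19 to 9.73) on IV, 6.79% (5.66 to 8.07) on II and 6.38% (5.32 to 7.58) on III. Neighbours in this order have overlapping intervals, while those of I and X lie far apart. The domains held 28.02% of the bound length on I and 44.4% on V, with 42.1% on X. The median width was 2668 bp (2524 to 2892) on I and 3213 bp (2852 to 3338) on X, with overlapping intervals.

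**Figure D2:**
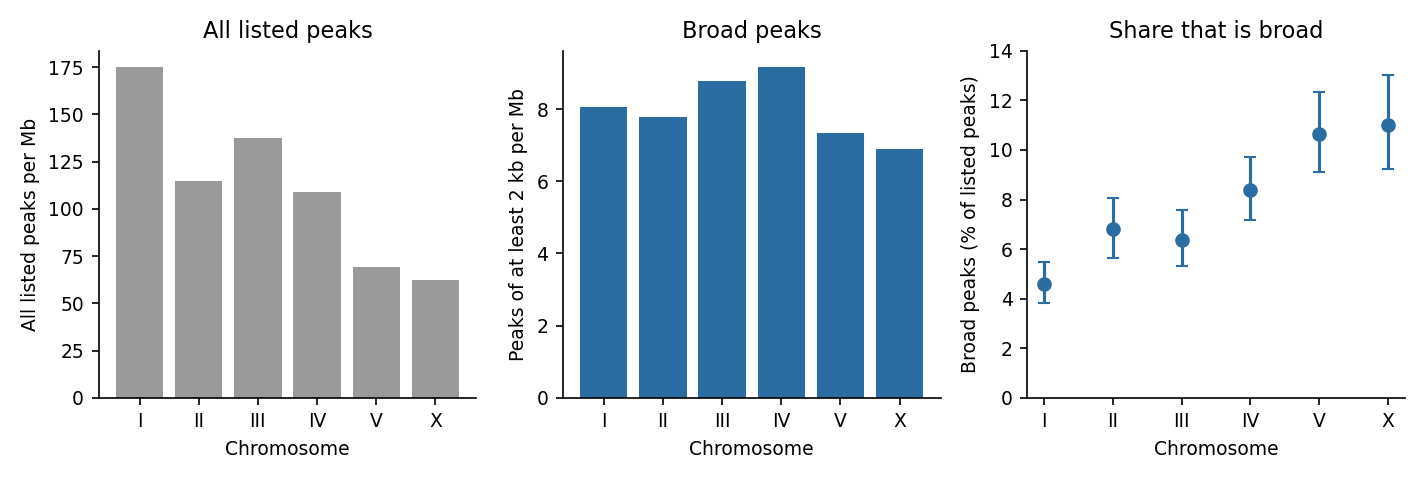
Listed peaks per Mb (left), domains of at least 2 kb per Mb (middle) and domains as a percentage of listed peaks (right, with 95% exact binomial intervals) for the 6 chromosomes. All peaks range from 62.5 to 175 per Mb, domains only from 6.89 to 9.16.

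Domains on I had the highest enrichment and those on X the lowest, and so did narrower peaks. The median ratio was 4.03 (3.81 to 4.28) on I, 3.07 (2.89 to 3.26) on III, 3.03 (2.70 to 3.21) on IV, 3.01 (2.75 to 3.30) on II, 2.66 (2.51 to 2.82) on V and 2.38 (2.17 to 2.55) on X. Neighbours in this order have overlapping intervals, except I and III. In ChIP tags per kb the median of I was 229 (218 to 245), beside 229 on II, 233 on V and 212 on IV. Its input tags were the sparsest, 58.0 per kb (55.4 to 61.5), against medians from 75.6 on IV to 93.2 on III. X had 87.4 input tags per kb (82.3 to 90.5), like V with 89.6 (85.9 to 93.4), and a median of 200 ChIP tags per kb (189 to 215), whose interval overlaps that of IV (202 to 226). Chromosome III stood highest in both, with 277 ChIP (257 to 293) and 93.2 input tags per kb (87.8 to 101), the latter overlapping V. Narrower peaks too had their highest median ratio on I, at 3.38, and their lowest on X, at 2.21, with 2.37 to 2.71 on the others. They also had their lowest median input density on I, 76.3 per kb, against 85.0 to 103 on the others. The input numbers are those after the caller's scaling. Whether that scaling differed between chromosomes is not given in the sources used here, and its part in the ratios was not tested.

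The medians kept the order of I, then II to V, then X in 4 width classes. At 2000 to under 2500 bp the median ratios came to 4.25 (3.55 to 4.99; 48 domains), 2.75 (2.53 to 2.995; 163) and 2.16 (1.88 to 2.61; 31). From 3000 to under 4000 bp they were 4.06 (3.29 to 5.55), 3.08 (2.88 to 3.37) and 2.04 (1.83 to 2.55). From 4000 bp they were 3.89 (3.01 to 4.16), 2.87 (2.72 to 3.11) and 2.59 (2.28 to 3.01), and from 2500 to under 3000 bp 4.03 (3.68 to 5.02), 3.0 (2.66 to 3.32) and 2.57 (1.86 to 3.22). The intervals of X and of II to V overlap except from 3000 to under 4000 bp. Those of I and of II to V overlap from 3000 bp upwards. Within the class the median −log10 q-value was 74.7 (61.6 to 80.4) on I, 73.3 (63.3 to 82.0) on III and 37.2 (25.8 to 45.9) on X.

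**Figure D3:**
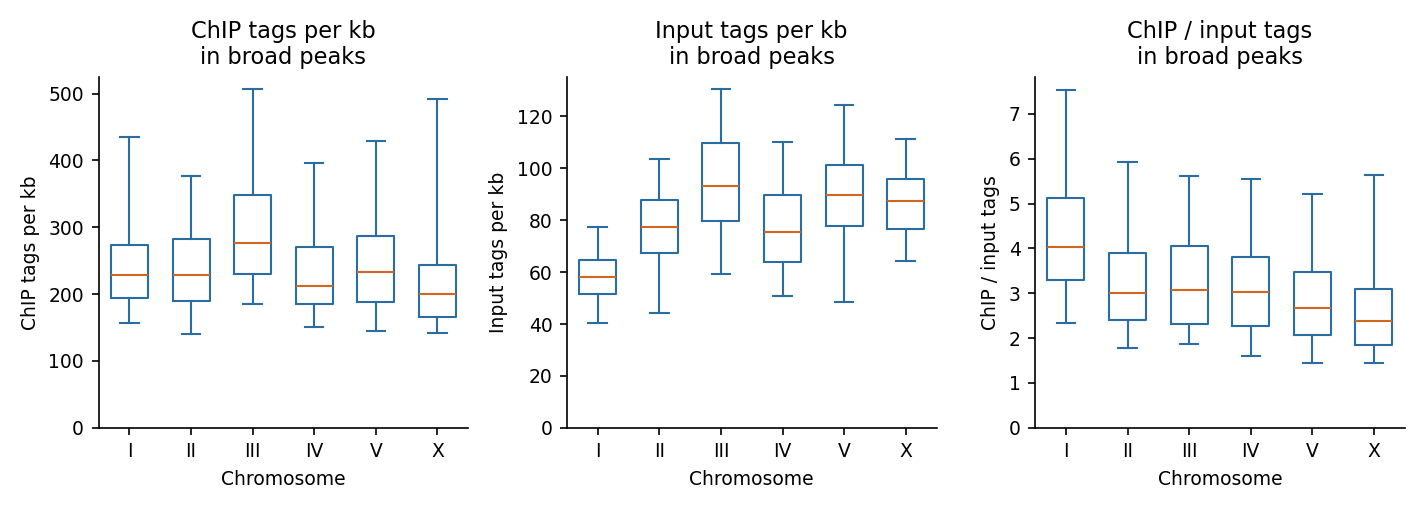
ChIP tags per kb (left), input tags per kb (middle) and their ratio (right) in the 790 domains with tag numbers, by chromosome. Boxes show quartiles, orange lines medians and whiskers the central 90% of domains; I is low in input, X low in ChIP tags.

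Along the chromosomes, each cut into 3 equal segments, domains and narrower peaks had similar shares in the middle, with chromosome I as an exception. In worms the autosome centres recombine rarely and are rich in genes expressed in many tissues. The middle segments of the 5 autosomes held 269 of 674 domains, 39.9% (36.2 to 43.7), and 41.4% (40.4 to 42.4) of the narrower peaks. On I the right segment held more domains than either of the others, 51 of 121 (42.1%), and only 26.4% of the narrower peaks, while the middle segment held 36 domains (29.8%) and 42.1% of the narrower peaks. Domains were thus 7.15% (5.37 to 9.30) of the peaks in the right segment of I and 3.30% (2.32 to 4.54) in its middle. They covered 3.46% of the right segment and 2.20% of the middle. On II to V together the middle segments held 42.1% (38.0 to 46.4) of domains and 41.2% of narrower peaks. From left to right, IV held 34.4, 41.9 and 23.8% of its domains and 34.5, 40.1 and 25.3% of its narrower peaks. V held 28.1, 44.4 and 27.5% of its domains and 27.5, 45.6 and 26.9% of its narrower peaks. X held 34.4, 32.8 and 32.8% of its domains and 28.7, 33.0 and 38.3% of its narrower peaks.

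**Figure D4:**
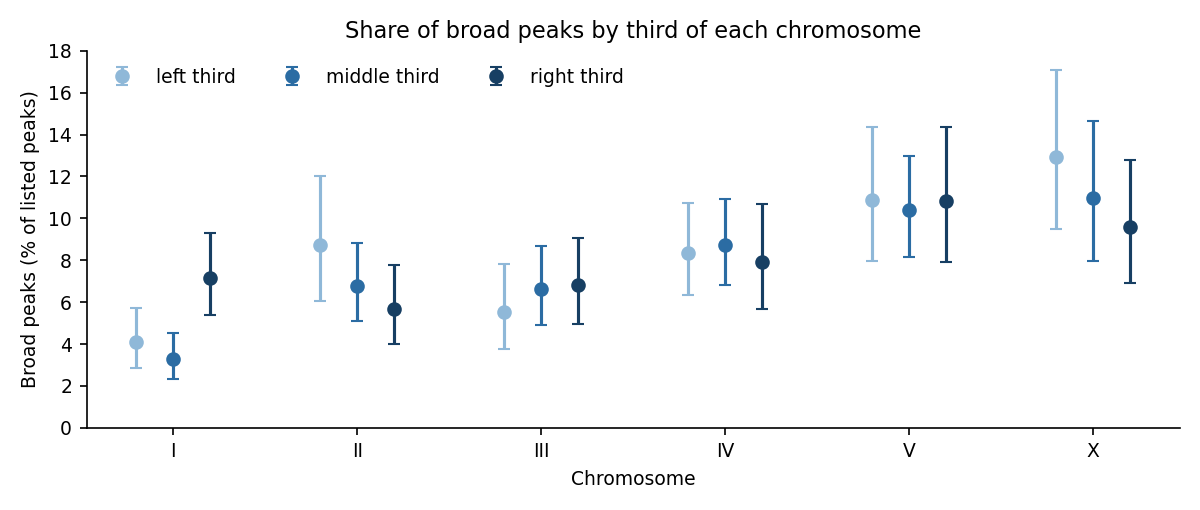
Domains as a percentage of listed peaks in the left, middle and right segment of each chromosome, with 95% exact binomial intervals. The right segment of I, at 7.15%, stands above the middle one, at 3.30%, while its interval overlaps that of the left one. On the other chromosomes the intervals of the segments overlap.

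Input tags in autosomal domains were denser in the middle segments than in the outer ones, with pooled medians of 87.4 per kb (84.5 to 90.1) and 73.2 (69.9 to 75.7). The middle was the denser on each of the 5 autosomes, with intervals that do not overlap on II, IV and V and that overlap on I and III. The pooled median ratio was 2.86 (2.70 to 3.03) in the middle and 3.31 (3.15 to 3.52) in the outer segments. Within chromosomes the middle was the lower on II, III and IV, and only on IV did the intervals not overlap. On IV the ratios were 2.58 (2.30 to 2.84) and 3.32 (3.11 to 3.52). On III they were 2.85 and 3.25 and on II 2.92 and 3.09, with overlapping intervals. On I and V the middle was slightly the higher, at 4.23 against 3.99 and 2.69 against 2.65, also with overlapping intervals. Pooled ChIP tags per kb were 235 (228 to 248) and 230 (221 to 242). On X the ratios were 2.44 (2.03 to 2.77) and 2.35 (2.14 to 2.64), again with overlapping intervals.

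In bins of 1 Mb the number of domains ranged from 1 to 16, with a median of 8 over 97 full bins, and no bin lacked one. The fullest were on III from 6000001 to 7000000 and on IV from 7000001 to 8000000, with 16 each. On III from 9000001 to 10000000, 13 domains covered 54.8 kb, the most of any bin. The emptiest, with 1 domain each, were on V from 2000001 to 3000000 and from 18000001 to 19000000. Across bins, rho between domains and narrower peaks was 0.34 over all chromosomes, from 0.50 on IV and 0.44 on V down to 0.10 on X and -0.28 on I.

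After a domain the next listed peak was also a domain in 107 of 796 cases, 13.4% (11.1 to 16.01), and after a narrower peak in 6.93% (6.44 to 7.45). The 2 shares were 15.7% and 5.75% on III, 17.6% and 9.74% on V, 15.6% and 10.5% on X, 13.1% and 7.97% on IV and 10.7% and 4.30% on I. On II they were 6.72% (2.95 to 12.8) and 6.80% (5.63 to 8.13). The intervals overlap on II, IV and X and not on I, III and V. The median gap from a domain to the next was 77.9 kb (67.95 to 84.3), with quartiles of 16.9 and 167 kb. Of the 790 gaps 163 (20.6%) were under 10 kb, 70 (8.86%) under 1 kb and 110 (13.9%) over 250 kb. Measured to either side, the nearest other domain lay at a median of 24.9 kb (21.5 to 29.9) from a domain and 35.8 kb (34.6 to 37.1) from a narrower peak. On III the medians were 15.4 and 42.0 kb, and on IV the order was reversed, with 30.6 and 28.5 kb. Placement against randomly chosen peaks was not tested.

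**Figure D5:**
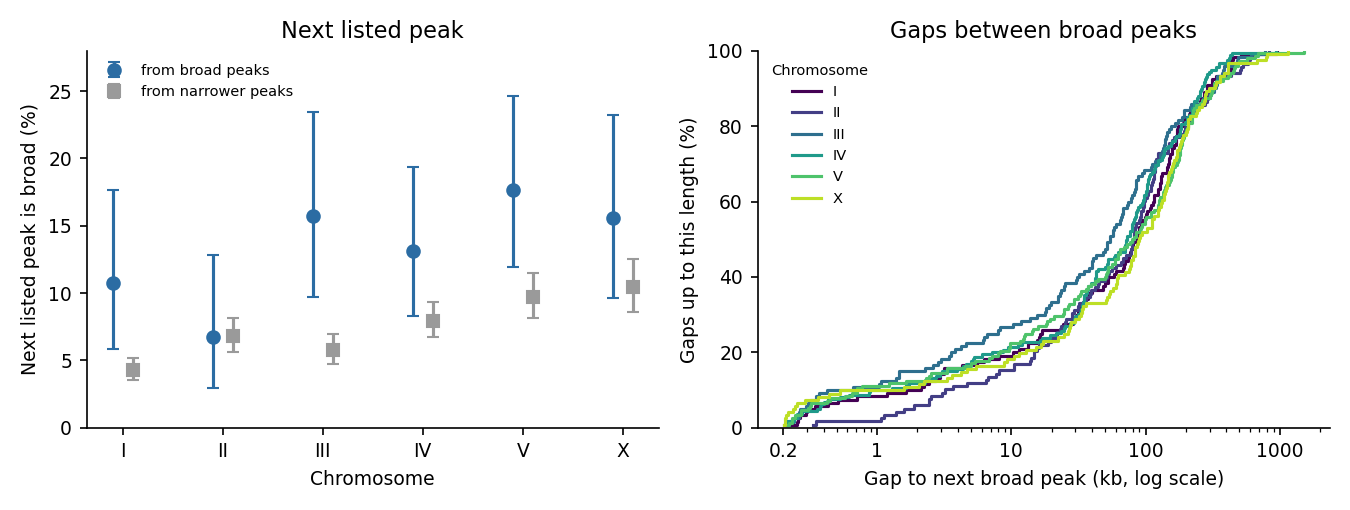
Left, percentage of domains (blue) and narrower peaks (grey) whose next listed peak is a domain, with 95% exact binomial intervals; right, cumulative percentage of gaps between neighbouring domains (kb, log scale), with a line per chromosome. The share is higher from domains on 5 chromosomes, on IV and X with overlapping intervals, and on II it is not.

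Runs of consecutive domains were short. Of 689 runs, 601 were single domains, 71 were pairs, 15 held 3 and 2 held 4. On III from 4470815 to 4504071, 4 domains covered 18088 bp of a 33257 bp stretch, and their ratios were 2.14, 2.16, 4.74 and 3.21 from left to right. The last 2, from 4491012 to 4496536 and from 4496843 to 4504071, were 306 bp apart and held 2327 and 1968 ChIP tags. On IV from 7130335 to 7145258, 4 weaker domains had ratios from 1.61 to 2.58.

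Between 57 pairs of neighbouring domains the gap was under 500 bp, with a median of 266 bp, and the median pair spanned 7213 bp. In 46 of the 56 pairs with tag numbers the ratios lay within 1.5 times of each other. The same share was not computed for domains further apart. Whether close partners were more alike than other domains was therefore not tested. The longest pair ran 19900 bp on II from 3951187 to 3971086, with ratios of 2.42 and 2.52 on either side of a 352 bp gap. On X from 12503376 to 12519244 (15869 bp) the ratios were 2.95 and 3.0. On X from 3816346 to 3831557 (15212 bp) they were 3.50 and 3.35. On V from 15651935 to 15665983 (14049 bp) the partners differed, with 5.37 and 2.82. The pair on V from 14828282 to 14846638 spanned 18357 bp.

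At the other end, the longest interval without a listed domain was 1509 kb, on V from 2070082 to 3578913. The next were 1146 kb on X from 1454999 to 2600755, 961 kb on I from 13659827 to 14620834, 937 kb on IV from 15719526 to 16656117 and 830 kb on II from 1405261 to 2234959. Of all domains, 45 (5.65%) had no listed peak within 10000 bp, nearly the 5.92% of narrower peaks.

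A narrower peak lay within 1 kb of 469 domains, 58.9% (55.4 to 62.4), and 125 of the 796 domains, 15.7% (13.2 to 18.4), had one on both sides. Of the narrower peaks 50.5% (49.5 to 51.5) had another narrower peak that close, and 13.5% (12.8 to 14.1) had one on both sides. The flanks were even, 292 on the left and 302 on the right, and the median gap was 371.5 bp (346 to 412), the smallest 200 bp. Between narrower neighbours within 1 kb of each other the median gap was 443 bp (426 to 457). Flanking was most frequent on I, at 76.9% (68.3 to 84.0), where peaks are densest. It was 64.7% on II, 62.8% on III, 61.3% (53.2 to 68.8) on IV, 51.6% on X and 40.5% (32.7 to 48.8) on V. The share for narrower peaks was also highest on I, at 58.1%. It was 49.2% on II, 51.2% on III, 53.9% on IV, 35.4% on X and 43.6% on V. On V alone the share of domains was no higher, and on IV that of narrower peaks lay inside the interval of domains. The 577 flanking peaks were wider than the other narrower peaks, with medians of 608 (563 to 672) and 363 bp (355 to 370). Their median ratio was 2.73 (2.66 to 2.83), against 2.72 (2.69 to 2.75). Flanked and unflanked domains had median widths of 3003 and 2968 bp and ratios of 3.01 and 3.0, with overlapping intervals. Flanked domains had fewer ChIP tags per kb, with medians of 220 (214 to 228) and 239 (229 to 251).

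A few domains were broad but weak. The −log10 q-value of 19 domains, 2.39% (1.44 to 3.70), was below the median of the whole list, 5.44. They comprised 6 on V, 6 on X, 5 on IV and 1 each on II and III. None of the 121 domains on I was among them, which allows a share of up to about 2.48% (3 counts over 121, not an exact interval). The ratios of the 19 ran from 1.13 to 1.68, with a median of 1.38 (1.28 to 1.43), against 3.04 (2.92 to 3.14) in the other domains. They had fewer ChIP tags, at a median of 144 per kb (125 to 150) against 229 (224 to 235), and more input tags, at 104 per kb (85.2 to 117) against 79.5 (77.9 to 81.4). The q-value helped to define them, so these are descriptions. Ratios under 1.5 were found in 30 domains, 3.80% (2.58 to 5.38), of which 13 lay on V and 10 on X, and in 1.08% (0.884 to 1.30) of narrower peaks. A peak with fewer tags needs a higher ratio to reach the q-value limit of the list, so these 2 shares cannot be compared.

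The weakest domain of all lay near the left end of V, from 24269 to 30340. Its 1184 ChIP tags stood against 1047 input tags, a ratio of 1.13 (1.04 to 1.23), with an input density of 172 per kb, against a median of 79.7. The first peak listed on V, from 5984 to 9724, was a domain with the highest input density of all, 190 per kb, but 1396 ChIP tags and a ratio of 1.96. Between them, the domains from 10430 to 14805 and from 15381 to 18930 had ratios of 1.41 and 1.49, with 105 and 119 input tags per kb. The other domains with the largest q-values were on X from 14558692 to 14560992 (ratio 1.29) and from 10397331 to 10400760 (1.26), on III from 6595726 to 6598527 (1.24) and on V from 10721814 to 10724034 (1.28). All 4 had input densities above the median domain, from 99.1 to 142 per kb. The domain on V from 17355006 to 17357556 was both weak and remote. Its 261 ChIP and 189 input tags gave a ratio of 1.38, and the nearest other domain lay 494 kb away.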

How the data were processed

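ChIP DNA and input DNA were sequenced in 2 replicates each, and the authors deposited 1 combined peak list, on WormBase WS190 with PeakSeq as its source, per the file headers and source column. Its version, the aligner and read filters are not given in the sources used here. Each peak has a q-value (an adjusted p-value) from the authors, at most 0.00998, and no value per sample. Width was end minus start plus 1, and strength −log10 of the deposited q-value. Ranks and tag numbers were computed here from the q-values with a relative tolerance of 1e-12 and totals up to 8999 tags. On simulated tag numbers 3672 of 3675 peaks were matched, each with the numbers simulated. The simulation was given the same first rank, number of regions and binomial tail. It therefore checks only the reading back, and neither these settings nor the meaning of the tag numbers. Tags per kb divide by the listed width, although tags reaching over an edge may count. Sequencing depth is known only inside listed peaks. Peaks were placed by midpoint. A chromosome's span ended with its last listed peak.

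Members and lists were chosen with earlier results of these data known. Domains were named by a fixed rule: the 5 widest, the 5 smallest and 5 largest q-values, the widest and strongest per chromosome, the longest runs, the extreme gaps and those next to 2000 bp. Those named for their ratio, their tag density or their place near the left end of V were chosen after seeing values. No gene was assigned and no sequence printed, because no WS190 genome was used. Intervals are exact binomial, for medians from order statistics. Scripts ran under Python 3.11.15. Binomial tails came from scipy 1.17.1, tables from pandas 2.3.3 with numpy 2.4.6, and plots from matplotlib 3.10.9.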

Additional observations from a re-analysis of the deposited data

How the results depend on the processing

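Domains were also taken from 1500 bp (1192), from 3000 bp (395), after joining peaks closer than 500 bp (1066) and among peaks with q at most 1e-05 (779); values follow in that order. The broad share of peaks was 11.1, 3.68, 12.6 and 13.4%, and of covered length 45.5, 24.1, 53.5 and 44.8%. The median −log10 q-value was 41.8, 79.6 and 40.5 in the first 3. The next peak was broad after 18.5, 9.11, 16.4 and 18.7% of domains and 10.2, 3.47, 12.0 and 12.6% of narrower peaks. A narrower peak lay within 1 kb of 62.5% of domains from 3000 bp, 34.6% after joining and 43.4% in the stricter list. For narrower peaks the shares were 52.4, 26.9 and 36.6%. Joining leaves no gap under 500 bp, so flanks nearer than that could not count there. In the main list the shares of domains and narrower peaks were 43.3 and 31.5% within 500 bp and 70.7 and 67.1% within 2 kb. Weak domains were 4.61% from 1500 bp, 1.27% from 3000 bp, 4.88% in the stricter list, whose own higher median was then the limit, and 1.01% below the lower quartile. A longer middle segment of the autosomes held 60.1% of domains. It contains the shorter one, so its share cannot be lower, and narrower peaks in it were not counted. On II alone rho of width was 0.62 with −log10 q and 0.21 with the ratio. The median ratio after joining was 2.86. ChIP tags per kb were 221, 235 and 199 in the first 3 settings and 213 with 200 bp added to each width. A joined peak took the smallest q-value of its members, and its width includes the gaps, whose tags are unknown. Joining thus lengthens the covered length and lowers the tags per kb by construction. The other 34 values moved by less than their interval or the spread over chromosomes, among them the share on X and rho between width and ratio. That rho, near 0, changed sign between settings. The tag-based results, those by segment within chromosomes included, the added width and leaving out chromosome I were chosen after seeing the data. No paired analysis was possible because the deposited list gives a single value per peak for all samples. Regions too weak to be listed are limited by depth, which is unknown outside peaks.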
